A study of Mus musculus with 2 samples.

Results

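The secreted Wnt antagonists of the mouse knee joint described here are 10 genes listed by symbol: Frzb, Sfrp1, Sfrp2, Sfrp4, Sfrp5, Wif1, Dkk1, Dkk2, Dkk3 and Sost. All 10 have a column among the 32245 gene columns of each of the 2 single-cell RNA sequencing libraries. Control cells were taken from Stat3fl/fl mice, which carry loxP sites in each Stat3 allele but no Cre. Mutant cells were taken from Acan-Cre+/Cre;Stat3fl/fl mice, in which Cre is expressed from the aggrecan gene, a gene of cartilage cells, and the methods of the study name a tamoxifen-inducible Cre with tamoxifen given on postnatal days 2 and 3. Mice were female and 1 month old, knee cells of 2 to 3 mice were pooled per genotype, and live cells without the endothelial marker CD31, the red cell marker Ter119 and the leukocyte marker CD45 were sorted before sequencing from the 3′ end of transcripts. With 1 pooled library per genotype the spread between animals is not measured, so every difference below compares 2 libraries, with no replicate check and no test.

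Wnt proteins signal through Frizzled receptors and the co-receptors LRP5 and LRP6 and set the pace of cartilage maturation and bone formation. The secreted Frizzled-related proteins (Sfrp1, Sfrp2, Sfrp4, Sfrp5 and Frzb, which is also called sFRP3) and WIF1 bind Wnt proteins in the extracellular space. DKK1, DKK2 and sclerostin, the product of Sost, bind the LRP co-receptors instead, and DKK3 is a divergent member of the Dickkopf family. Frzb is known from articular cartilage, and Sost from osteocytes, the cells buried in bone.

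There were 4903 control and 1340 mutant cells, with median depths of 4344 and 3743 estimated UMIs (unique molecular identifiers, each standing for 1 captured transcript). Chondrocytes were the 501 control and 332 mutant cells that the authors had marked, and 4 other populations were gated with marker genes among the remaining cells. Cells with Prg4, without Col2a1 and with at least 2 of 6 other markers formed the synovial lining (136 control and 22 mutant cells). Cells with at least 3 of 8 markers such as Pi16 and Dpp4 formed the fibroblasts (268 and 114), cells with at least 2 of Tnmd, Scx, Mkx and Thbs4 the tendon cells (224 and 33), and Col1a1-positive cells with at least 3 of 6 bone markers the osteoblasts (108 and 77). In each library the summed level of every marker list was highest in its own population, as the selection required. For instance, the 6 osteoblast markers summed to 26073 CPM (counts per 1000000 UMIs of the summed cells) in control and 67627 CPM in mutant osteoblasts. A globin transcript was found in 48.1% to 70.1% of cells in the 4 gated populations of the control library, in 1.30% to 4.55% of those in the mutant library, and in no marked chondrocyte of either. Stat3 itself was at 142 CPM in control and 103 CPM in mutant chondrocytes, and 3′ counting does not tell transcripts with the floxed exons from those without.

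Frzb and Sfrp5 were the members whose highest population was chondrocytes in both libraries, and they are therefore shown first at sequence level. Frzb (ENSMUSG00000027004) lies at chr2:80411970-80447625 on the minus strand (GRCm38, Gencode M21). RefSeq promoter windows on GRCm38.p6, the 250 bases before a transcript start, were found for 7 of the 10 members (Dkk1, Dkk2, Frzb, Sfrp2, Sfrp5, Sost and Wif1). Both strands were searched for TTCNNNGAA, the palindrome bound by STAT factors, for TCAAAG, a core of TCF/LEF sites, and for AACAAT, a core of SOX sites. These letters occurred in 7.02%, 13.8% and 9.42%, respectively, of all 32851 windows. The Frzb window was the only one of the 7 to hold the STAT palindrome, at bases -87 to -79 from the start, with a TCAAAG at -95 to -90. The 30 bases around both, at chr2:80447468-80447497, lie in the 5′ UTR within the first exon of the longer Gencode transcript Frzb-201. Matches are in capitals.
Frzb: gaaaacTCAAAGccTTCTCGGAAggaggag
Dkk1 had its own highest level in osteoblasts of both libraries, and its window held TCAAAG at 2 places. These were on the strand of the gene at -174 to -169 and on the opposite strand, where it reads CTTTGA, at -117 to -112. The stretches, at chr19:30549653-30549682 and chr19:30549596-30549625 on the minus strand, overlap the first exon of the Gencode transcript Dkk1-201.
Dkk1, first: gaggggagagtgTCAAAGtcctccctgctt
Dkk1, second: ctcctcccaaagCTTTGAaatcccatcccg
The Sfrp5 window, at chr19:42202253-42202502 on the minus strand, overlaps no annotated exon and held none of the 3 motifs, so it is given in lower case throughout.
Sfrp5: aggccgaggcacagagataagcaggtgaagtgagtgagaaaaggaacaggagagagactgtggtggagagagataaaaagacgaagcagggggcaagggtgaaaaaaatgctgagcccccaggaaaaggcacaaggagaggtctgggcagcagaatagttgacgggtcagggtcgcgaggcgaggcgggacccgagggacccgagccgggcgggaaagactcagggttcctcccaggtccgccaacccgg
The windows of Wif1, Dkk2, Sfrp2 and Sost held none of the 3 motifs either. A match shows only that these letters are present, and its absence only that they are not in this window.

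The first comparison asked in which joint cells each antagonist was detected. Of the 10 members, 9 reached 20 CPM in their highest population in both libraries, and for 6 of these 9 the same population ranked first in both, against 46.9% of all 7007 genes measured this way. Sfrp4 (ENSMUSG00000021319, chr13:19623104-19632994, plus strand) stood at least 2-fold above the other 4 populations in fibroblasts of both libraries, with 677 CPM in control and 747 CPM in mutant cells. The next population was at 62.7 CPM (osteoblasts) and 174 CPM (tendon), respectively. Dkk2 (ENSMUSG00000028031, chr3:132085292-132180304, plus strand) was likewise highest in fibroblasts, at 156 and 88.9 CPM, with tendon next at 41.1 and 16.8 CPM. Of all genes, 2.0% met this criterion for fibroblasts. Both genes were thus led by the same population, and Sfrp4 was detected in 51.5% (45.3% to 57.6%) of control fibroblasts and in 47.4% (37.9% to 56.9%) of mutant fibroblasts. Dkk2 was above 0 in 19.8% (15.2% to 25.1%) and 19.3% (12.5% to 27.7%). Ranges after shares are exact (Clopper-Pearson) 95% binomial intervals, which cover counting error only. As a background for such shares, control erythroid cells (1697 cells, median 6040 UMIs), which should lack the antagonists, held Sfrp4 in 2.95% of cells, Wif1 in 0.943% and each other member in 0% to 0.412%.

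**Figure D1:**
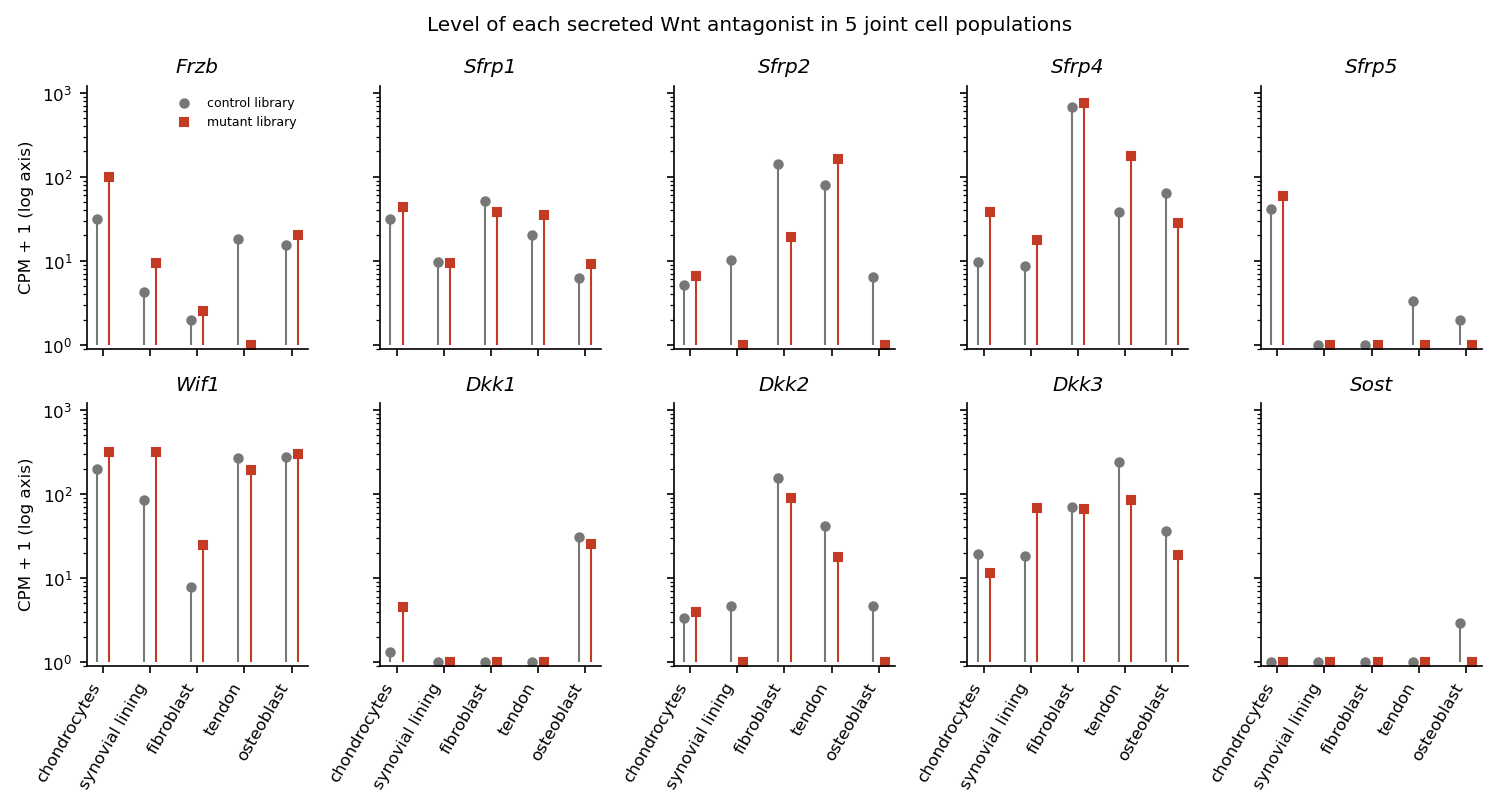
Level of each antagonist, as CPM + 1 on a log axis, in the 5 populations of the control library (grey circles) and the mutant library (red squares), 1 point per library. Sfrp5 stands out only in chondrocytes and Dkk1 only in osteoblasts, Sfrp4 peaks in fibroblasts, and Wif1 is high everywhere but in fibroblasts.

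Sfrp5 (ENSMUSG00000018822, chr19:42197971-42202252, minus strand) was close to limited to chondrocytes, with 40.2 CPM in control and 58.7 CPM in mutant cells. In the control it was at 2.31 CPM in tendon cells and 0.977 CPM in osteoblasts, each from 1 cell, and it was listed at 0 in lining cells and fibroblasts of the control and in all 4 gated populations of the mutant. At 0 UMIs a level of up to 3.23 CPM is allowed in control fibroblasts, but up to 25.6 CPM in the 22 mutant lining cells. Being 2-fold above all 4 other populations was met by 2.1% of genes for chondrocytes. Frzb was also highest in chondrocytes, at 30.5 and 97.9 CPM, although in the control it stood above tendon cells (16.9 CPM) by a log2 ratio of only 0.81. In the mutant, Frzb stood at 19.3 CPM in osteoblasts, the next population, and at 0 in the 33 tendon cells, which allows up to 16.9 CPM.

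Dkk1 (ENSMUSG00000024868, chr19:30545863-30549665, minus strand), an inhibitor of bone formation, was detected in osteoblasts at 30.2 CPM in control and 24.3 CPM in mutant cells, from about 16 and 15 UMIs. In control chondrocytes it was at 0.303 CPM, and 0 UMIs were counted in the lining, fibroblasts and tendon of both libraries. The corresponding share of genes for osteoblasts was 1.77%. Sost (ENSMUSG00000001494, chr11:101962458-101967015, minus strand) was close to undetected, as 1 UMI was found in control osteoblasts and none in the other 4 populations of the control or in any of the 5 in the mutant. The 108 and 77 osteoblasts carried Dmp1, a gene of late osteoblasts and osteocytes, at 414 and 364 CPM. With 0 of 77 mutant osteoblasts holding a Sost UMI, a floor of 3 counts allows a share of up to 3.90% of cells with a UMI, which does not limit the share of cells that express the gene.

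Wif1 (ENSMUSG00000020218, chr10:121033960-121100650, plus strand) was spread over 4 of the 5 populations. Its control levels were 276 CPM in osteoblasts, 269 CPM in tendon cells and 200 CPM in chondrocytes, and the first 2 of these differed by a log2 ratio of 0.03. In the mutant, chondrocytes (316 CPM), lining cells (315 CPM) and osteoblasts (296 CPM) were similarly close, so no single population led for Wif1. Fibroblasts were lowest in both libraries, at 6.88 and 23.8 CPM. Dkk3 (ENSMUSG00000030772, chr7:112116017-112159057, minus strand) was highest in tendon cells of both libraries, at 240.4 and 84.2 CPM, but the second population, lining cells in the mutant, lay at 68.1 CPM. Sfrp1 (ENSMUSG00000031548, chr8:23411502-23449632, plus strand) was led by fibroblasts in the control (49.9 CPM) and by chondrocytes in the mutant (42.3 CPM). Sfrp2 (ENSMUSG00000027996, chr3:83766321-83774316, plus strand) was led by fibroblasts in the control (142 CPM) and by tendon cells in the mutant (163 CPM).

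To compare the members with other genes, the 3 genes whose log2(CPM + 1) over the 10 points (5 populations in 2 libraries) correlated most with each member above 50 CPM were listed among 1975 candidates. Points of a library share its depth and dissociation, so Pearson's r is a description. The gene closest to Dkk3 was Arl5a (r = 0.96) and the gene closest to Wif1 was Kcnma1, a potassium channel gene (r = 0.96), followed by Myo1d (0.90) and Sdc3 (0.88). Sfrp2 was closest to the matrix gene Mfap4 (r = 0.94), then Snrpd2 (0.93) and Gng12 (0.90). Dkk2 was closest to the fibrillin gene Fbn1 (r = 0.94), then Loxl1 (0.92) and the Wnt co-receptor gene Lrp6 (0.91). For Sfrp4 the closest were Nrp1 (r = 0.88), Abca8a (0.85) and C1s1 (0.84), and after Arl5a, Dkk3 was followed by Mtch1 (0.90) and Hmgn3 (0.88).

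The second comparison asked how the antagonists differed between genotypes in chondrocytes, the cells in which Stat3 was targeted. A gene was read where its mean over the 2 libraries was at least 20 CPM with at least 10 UMIs, and a difference was called at 2-fold. Of the 10 members, 5 were read in chondrocytes (Frzb, Sfrp1, Sfrp4, Sfrp5 and Wif1), and all 5 were higher in the mutant. Sfrp4, at 8.62 CPM in the control, met the required mean only through its mutant level of 37.0 CPM. Dkk3 fell short of that mean and was lower in the mutant, with a log2 ratio of -0.74 (-1.45 to -0.14). The filter thus shaped which members were counted, and the median below covers only those read. Frzb and Sfrp4 passed 2-fold, and no member was lower past 2-fold. Among all 5426 genes read, 7.91% passed 2-fold in either direction, 3.28% upwards and 4.63% downwards. The median log2 ratio of the 5 members was 0.66, against -0.17 for all genes read. Median-of-ratios scaling sets aside a shift of -0.16 (log2) common to the genes in these cells. It raises the ratio of each of the 5 members, so it could not have turned their sign. Levels are summed over the cells of a population, so more positive cells and more RNA per cell are told apart only by the shares given beside them.

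Frzb was at 30.5 CPM in the control (about 94 UMIs) and 97.9 CPM in the mutant (about 300 UMIs). The mutant level was thus 3.14-fold higher on the CPM + 1 scale, a log2 ratio of 1.65 with a 95% counting interval of 1.34 to 2.03. This ratio exceeded that of 99.1% of the genes read. More mutant cells carried the transcript, and positive cells held more UMIs. Frzb was detected in 11.2% (8.55% to 14.3%) of control chondrocytes and in 25.3% (20.7% to 30.3%) of mutant chondrocytes, with means of 1.67 and 3.57 UMIs per positive cell. Since mutant chondrocytes were sequenced more deeply (a median of 8595 UMIs against 5876), every cell was also thinned to 1964 UMIs, which 34 control and 31 mutant cells did not reach. After thinning, Frzb remained in 4.50% (2.80% to 6.79%) of control cells and in 11.6% (8.23% to 15.8%) of mutant cells. The erythroid background of Frzb was 0.236% of cells at full depth and 0% after thinning. In the mutant, 20.2% of chondrocytes exceeded 5% mitochondrial counts, against 3.99% in the control. Among cells within 5%, the log2 ratio of Frzb was 1.70.

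**Figure D2:**
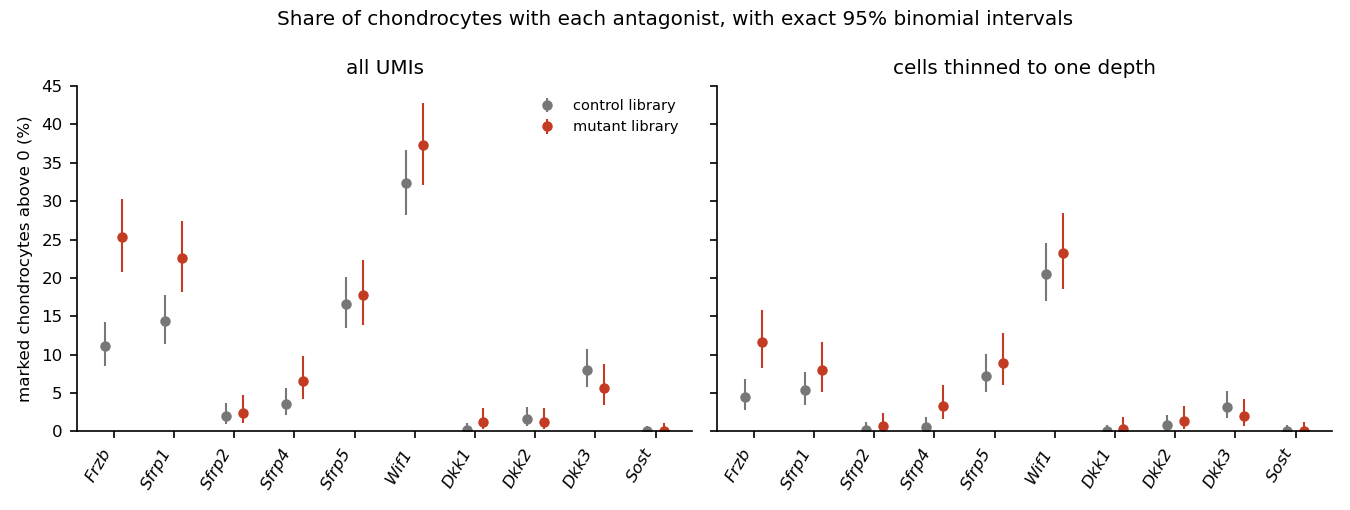
Share of marked chondrocytes with a value above 0 for each antagonist, in percent, with exact 95% binomial intervals, in all cells at their full depth (left) and in cells thinned to 1964 UMIs (right), for the control (grey) and mutant (red) library. The intervals of Frzb do not overlap in either panel, whereas those of Wif1 and Sfrp5 overlap in both.

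Sfrp4 was at 8.62 CPM in control and 37.0 CPM in mutant chondrocytes, a log2 ratio of 1.98 (1.50 to 2.80). The difference rested on few cells, since 3 of the 22 positive mutant cells held 56.4% of its UMIs. In the control, the share of positive chondrocytes (3.59%, 2.14% to 5.62%) lay within the interval of erythroid cells (2.95%, 2.19% to 3.87%), so this share is not read as expression. The control level was 8.62 CPM, against 2.64 CPM in control erythroid cells. The mutant share was 6.63% (4.20% to 9.86%). The 29 mutant erythroid cells held no Sfrp4 UMI, but at their median of 1349 UMIs they are too few and too shallow to give a background. Without the 3 cells highest for Sfrp4 in each library, the log2 ratio was 1.51 and the gene was no longer above the level required. The 6 osteoblast markers were all above 0 in marked chondrocytes of both libraries, and their summed level was 897 CPM in control and 4549 CPM in mutant cells. Leaving out the 4 control and 19 mutant chondrocytes that met the osteoblast marker rule, a choice made after seeing the data, gave a log2 ratio of 1.87 for Sfrp4, below the level required, and of 1.73 for Frzb.

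The 3 other members read in chondrocytes differed by less than 2-fold. Wif1 was at 200 CPM in control and 316 CPM in mutant cells, a log2 ratio of 0.66 (0.51 to 0.81). Sfrp5 was at 40.2 and 58.7 CPM, a log2 ratio of 0.53 (0.21 to 0.89), and Sfrp1 was at 30.0 and 42.3 CPM, a log2 ratio of 0.48 (0.09 to 0.89). These counting intervals lie above 0, but they hold no variation between mice. The ratios also depended on which cells the authors had marked. Over all cells above 0 for Sox9 and Col2a1 (1013 control and 335 mutant cells), they were 0.20 for Wif1, 0.21 for Sfrp5 and 0.65 for Sfrp1. The Wif1 value lies below its counting interval. Thinned shares of positive cells overlapped for all 3, at 20.6% (17.0% to 24.5%) and 23.3% (18.6% to 28.4%) for Wif1. The other 5 members stayed below the level required in chondrocytes, with Dkk3 at 18.5 and 10.7 CPM, Sfrp2 at 4.15 and 5.51 CPM, Dkk2 at 2.32 and 2.91 CPM, Dkk1 at 0.303 and 3.56 CPM and Sost at 0 in both.

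Marked chondrocytes were then divided by zone markers. Articular-type cells had at least 2 of Prg4, Cytl1, Abi3bp, Creb5, Erg and Chil1 (129 control and 109 mutant cells), and prehypertrophic-type cells had at least 2 of Ihh, Pth1r, Col10a1, Panx3, Mef2c and Sp7 (119 and 72). The remaining 253 and 151 cells met neither or both. These names stand for the marker rules only, since few prehypertrophic-type cells held Ihh or Col10a1. Ihh was detected in 11.8% of control and 8.33% of mutant cells of this subset, and Col10a1 in 7.56% and 5.56%. Mutant Col10a1 was at 618 CPM here but at 737 CPM in the remaining cells, whereas in the control this subset was the higher. Whether its cells are prehypertrophic was not tested. Wif1 was strongly biased to articular-type cells, at 610 CPM against 36.0 CPM in prehypertrophic-type cells of the control and 591 against 90.4 CPM in the mutant. These are log2 ratios of 4.05 (3.57 to 4.61) and 2.69 (2.37 to 3.06). Frzb followed the same order, at 71.7 against 21.3 CPM in the control and 192 against 43.0 CPM in the mutant, log2 ratios of 1.70 (0.95 to 2.55) and 2.13 (1.65 to 2.69). Sfrp5 did so as well, at 66.4 against 17.5 CPM and 86.6 against 18.8 CPM (1.87 and 2.15). Being 2-fold higher in articular-type cells of both libraries was met by 6.0% of the 4798 genes read. Dkk3 was at 73.9 CPM in articular-type and 0.987 CPM in prehypertrophic-type control cells, while in the mutant it was at 19.9 CPM and 0 CPM, too low to be read.

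**Figure D3:**
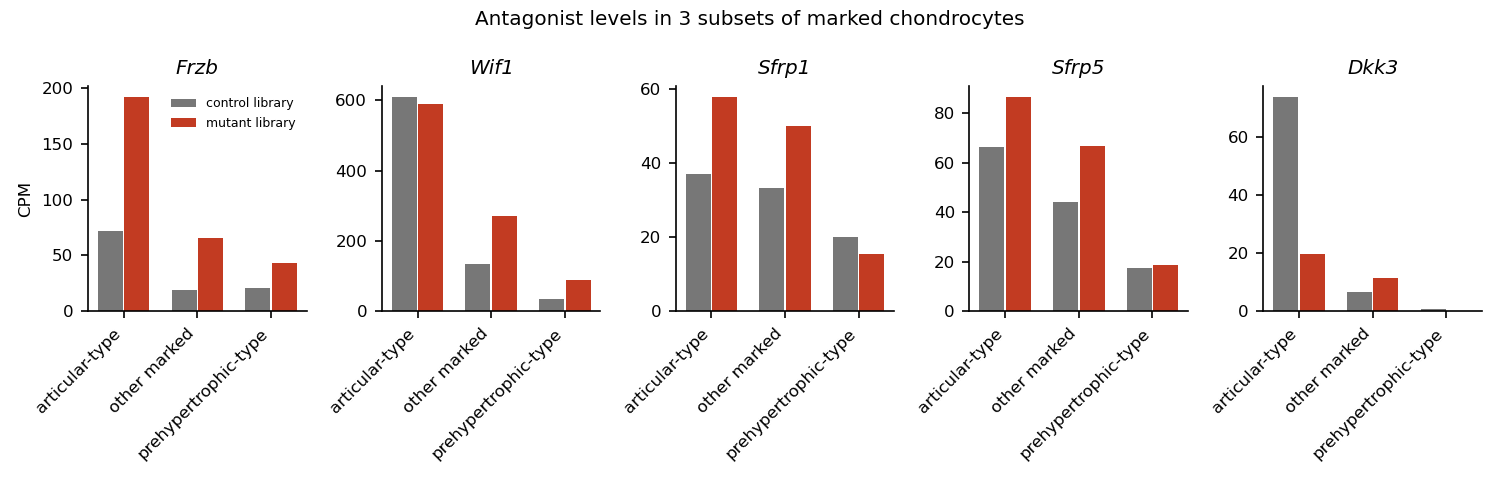
Levels in CPM of 5 antagonists in articular-type, other and prehypertrophic-type chondrocytes of the control (grey bars) and mutant (red bars) library, 1 value per library, with bars starting at 0. Frzb is higher in the mutant in all 3 subsets, Wif1 is at about 600 CPM in articular-type cells of both libraries and higher in the mutant elsewhere, and Dkk3 is lower in mutant articular-type cells.

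Between genotypes, the summed level of Frzb was higher in the mutant in every subset. The log2 ratios were 1.41 (0.93 to 1.91) in articular-type, 0.98 (0.18 to 1.82) in prehypertrophic-type and 1.72 (1.17 to 2.48) in the remaining cells. Background rates of 2-fold differences were 13.5%, 17.0% and 10.0% of genes, respectively. The prehypertrophic-type ratio rested on few cells, as 3 cells held 48.3% of control and 74.6% of mutant Frzb UMIs. Thinning left no higher mutant share of Frzb-positive cells in this subset, at 3.36% (0.92% to 8.38%) for control and 2.86% (0.35% to 9.94%) for mutant cells. The summed level of Wif1 was near equal between the libraries in 1 subset only, a contrast that was not tested. In articular-type cells Wif1 was at 610 CPM in control and 591 CPM in mutant cells, a log2 ratio of -0.05 (-0.24 to 0.15), whereas the ratio was 1.30 (0.73 to 1.93) in prehypertrophic-type and 1.01 (0.75 to 1.27) in the remaining cells. After thinning, 51.8% (42.2% to 61.2%) of control and 35.9% (26.7% to 46.0%) of mutant articular-type cells held Wif1, with overlapping intervals. At full depth, 3 cells held 16.0% of its control and 27.6% of its mutant UMIs in this subset. Bglap, the osteocalcin gene of osteoblasts, was at 1496 and 8804 CPM in prehypertrophic-type, 41.6 and 1098 CPM in the remaining and 9.20 and 19.4 CPM in articular-type cells. Acan, the aggrecan gene, was at 5955 and 2141 CPM, 5057 and 1808 CPM, and 2580 and 1128 CPM in the same order. Osteoblasts themselves carried Wif1 at 276 and 296 CPM, and their part in the subset differences was not tested. Without the chondrocytes meeting the osteoblast marker rule, the log2 ratio of Wif1 over all marked cells was 0.66. Dkk3 was lower in mutant articular-type cells, with a log2 ratio of -1.84 (-2.73 to -1.08), from about 46 and 19 UMIs. With the 3 subsets weighted equally in both libraries, also chosen after seeing the data, the log2 ratio of Frzb was 1.40.

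Antagonists were also counted within cells. Of chondrocytes thinned to equal depth, 65.7% in the control (61.2% to 70.0%) and 53.5% in the mutant (47.7% to 59.2%) held none of the 10, whereas 27.2% (23.2% to 31.5%) and 34.9% (29.5% to 40.6%) held exactly 1. At full depth, 41.9% and 36.4% held none. In the thinned control cells, Wif1 was found in 57.1% of the 21 Frzb-positive cells (34.0% to 78.2%) and in 18.8% of the 446 others (15.3% to 22.8%). In the thinned mutant cells it was found in 28.6% of 35 (14.6% to 46.3%) and 22.6% of 266 (17.7% to 28.1%), whose intervals overlap. At full depth, Wif1 was present in 57.1% of Frzb-positive cells of either library, against 29.2% of the other control and 30.6% of the other mutant chondrocytes. The pair thus shared cells in both libraries at full depth, where deeper cells show more of every gene.

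The third comparison took the same genotypes in the 4 gated populations, in which mutant cells were few. In fibroblasts 5 members were read and 1, Sfrp2, was past 2-fold downwards, against 12.9% of genes in either direction and 7.73% downwards. Sfrp2 was at 142 CPM in the control (about 131 UMIs) and 18.1 CPM in the mutant (about 12 UMIs), a log2 ratio of -2.90 (-3.95 to -2.11). Of 268 control fibroblasts 30 were positive and of 114 mutant fibroblasts 6, and 3 cells held 41.0% of the control UMIs. The interval assumes independent molecules, yet these UMIs lay in few cells, so it does not cover the spread between cells. The log2 ratio was -3.57 without the 3 highest cells of each library, -2.47 among cells without globin and -1.78 with gates that ask for 1 marker fewer. Other markers also differed in these cells. Prg4, the lubricin gene of the lining, was at 1305 and 5493 CPM and Clic5, another lining marker, at 2.72 and 131 CPM. The 6 lining markers summed to 640.1 and 1021 CPM, the 4 tendon markers to 207 and 88.7 CPM and the 8 fibroblast markers to 7133 and 7373 CPM, with Pi16 at 406 and 203 CPM. Their part in the Sfrp2 difference was not tested. Sfrp4 in the same cells was at 677 and 747 CPM, a log2 ratio of 0.14 (-0.03 to 0.32). Dkk2 was at 156 and 88.9 CPM, a log2 ratio of -0.80 (-1.27 to -0.37). Dkk3 and Sfrp1 had intervals that include 0, at -0.08 (-0.66 to 0.50) and -0.40 (-1.16 to 0.34).

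**Figure D4:**
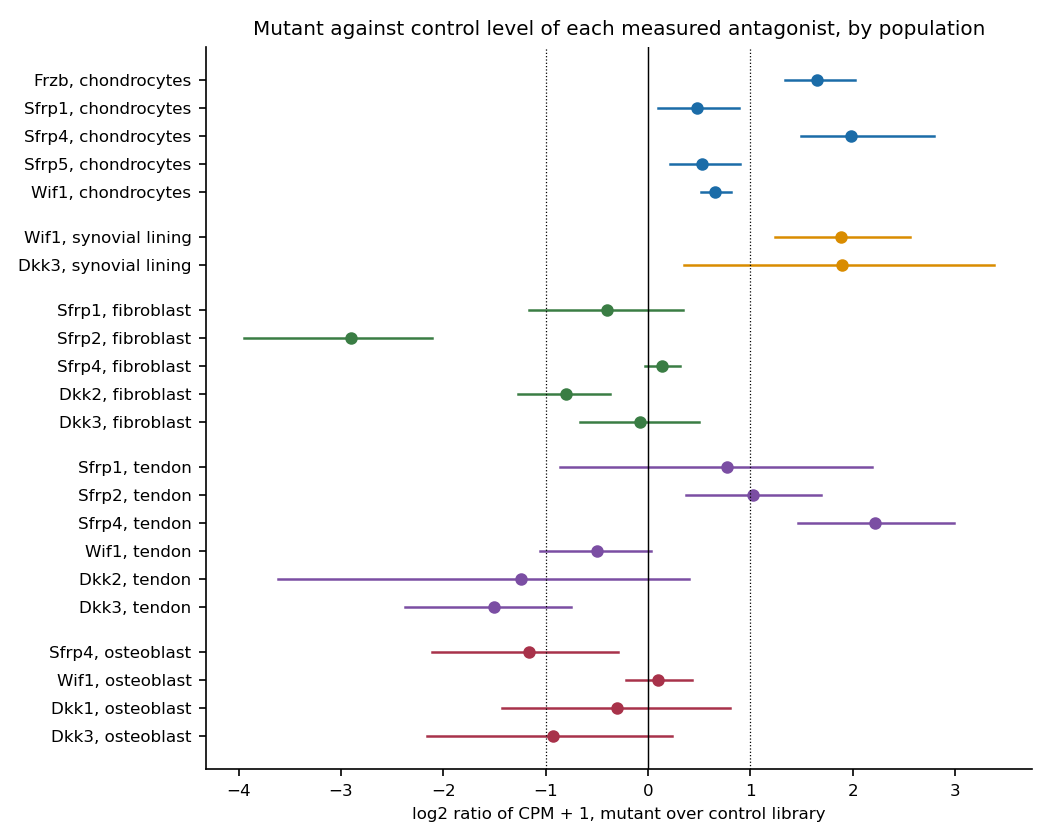
Log2 ratio of mutant over control CPM + 1 for each antagonist that was read, grouped by population (colours), with lines for the 95% counting interval and dotted lines at 2-fold. In chondrocytes all 5 points lie above 0, Sfrp2 in fibroblasts lies at -2.90, and Sfrp2, Sfrp4 and Dkk3 lie past 2-fold on opposite sides in different populations.

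In tendon cells 6 members were read and 4 were past 2-fold, Sfrp2 and Sfrp4 upwards and Dkk2 and Dkk3 downwards, against 23.1% of genes in either direction, 10.0% upwards and 13.0% downwards. Dkk3 was at 240.4 CPM in control and 84.2 CPM in mutant cells, a log2 ratio of -1.50 (-2.37 to -0.75), and was above 0 in 98 of 224 and 9 of 33 cells. Over the alternatives tried this ratio lay between -2.55 and -0.67. Sfrp2 was at 79.4 and 163 CPM, a log2 ratio of 1.03 (0.37 to 1.70), and was above 0 in 16 and 10 cells. That ratio was 4.75 among cells without globin and 0.50 with gates of 1 marker fewer, so its size is poorly fixed. Sfrp4 was at 36.7 and 174 CPM (2.22, 1.47 to 2.99), but 3 of its 5 positive mutant cells held 93.6% of the UMIs, and without the 3 highest cells of each library the ratio was 0.20. Dkk2 was at 41.1 CPM and, from 3 UMIs, 16.8 CPM, a log2 ratio of -1.24 whose interval (-3.61 to 0.40) includes 0 and whose sign turned after thinning (0.42). Wif1 was at 269 and 190 CPM (-0.50, -1.06 to 0.03), and Sfrp1 was at 19.2 and 33.6 CPM (0.78, -0.86 to 2.19). More than 5% mitochondrial counts were found in 12.1% of control and 42.4% of mutant tendon cells, and the 5 chondrocyte markers summed to 1651 and 239 CPM. Their part in these differences was not tested.

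In the synovial lining only Wif1 and Dkk3 were read, and both were past 2-fold upwards, against 26.8% of genes in either direction and 14.6% upwards. Wif1 was at 84.0 CPM in control and 315 CPM in mutant cells, a log2 ratio of 1.89 (1.24 to 2.56), and was above 0 in 12 of 136 and 6 of 22 cells. Of the mutant UMIs, 81.2% lay in 3 cells, and leaving out the 3 highest of each library gave 1.07. Dkk3 was at 17.5 and 68.1 CPM (1.90, 0.35 to 3.39), from about 10 and 8 UMIs, and its sign turned (-0.66) with gates of 1 marker fewer. Of 5 chondrocyte markers, 3 were above 0 in control and 4 in mutant lining cells, with sums of 152 and 1014 CPM, and the 6 lining markers summed to 9885 and 4361 CPM. Their part in the Wif1 difference was not tested.

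In osteoblasts 4 members were read and 1, Sfrp4, was past 2-fold downwards, against 15.8% of genes in either direction and 10.3% downwards. Sfrp4 was at 62.7 CPM in control and 27.4 CPM in mutant cells, a log2 ratio of -1.16 (-2.11 to -0.29), in 17 of 108 and 8 of 77 cells. The call ended after thinning (-0.47), with gates of 1 marker fewer (-0.85) and with a pseudocount of 10 CPM. Wif1 was at 276 and 296 CPM, a log2 ratio of 0.10 (-0.21 to 0.43), which became 1.30 among cells without globin and -1.02 with gates of 1 marker fewer. Dkk1 was at 30.2 and 24.3 CPM (-0.30, -1.43 to 0.80), with -2.01 under gates of 1 marker fewer and 0.27 under gates of 1 marker more. Dkk3 was at 34.9 and 17.8 CPM (-0.93, -2.16 to 0.23), and at a log2 ratio of -2.05 after thinning, where it was too low to be read. Here 15.7% of control and 42.9% of mutant cells exceeded 5% mitochondrial counts, and within that limit the log2 ratio of Sfrp4 was -1.12.

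Marrow stromal cells, gated with at least 3 of Adipoq, Lepr, Cxcl12, Kitl, Cxcl14 and Hp (130 control and 104 mutant cells), lie outside the 5 populations but also carried several of the antagonists. Wif1 was at 275 CPM in control and 100.4 CPM in mutant cells, a log2 ratio of -1.44 (-1.96 to -0.95). Sfrp1 was at 229 and 96.7 CPM (-1.24, -1.77 to -0.72), which placed marrow stromal cells above the 5 joint populations for this gene in both libraries. Sfrp4 was at 273 and 114 CPM (-1.25, -1.74 to -0.77), and Dkk3 at 66.7 and 23.2 CPM (-1.49, -2.68 to -0.50). Of 5 members read, these 4 were past 2-fold, all lower in the mutant, against 19.5% of genes past 2-fold in either direction and 12.0% downwards in these cells. Sfrp2 was at 26.3 and 23.2 CPM. Mitochondrial counts exceeded 5% in 5.38% of control and 39.4% of mutant marrow stromal cells, and a globin transcript was present in 66.2% and 5.77%. Their part in these differences was not tested.

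The other genes of the Wnt pathway, grouped by role, gave a context for the antagonists in chondrocytes. None of the 2 ligand genes read of 19 was past 2-fold, with Wnt11, the higher, at 63.1 CPM in control and 61.8 CPM in mutant cells, and Wnt4 at 52.2 and 49.4 CPM. None of 5 receptor or co-receptor genes read of 18 was past 2-fold, the highest being the Wnt receptor gene Ryk at 99.2 and 104 CPM. Of other secreted modulators, 4 of 10 were read, and Cthrc1, which binds Wnt and Frizzled proteins, was past 2-fold at 37.0 and 95 CPM, a log2 ratio of 1.34 (1.04 to 1.68). The highest of this list was Igfbp4, at 103 and 123 CPM. None of 4 target and feedback genes read of 13 was past 2-fold, with Ccnd1 highest at 159 and 116 CPM, a log2 ratio of -0.45 (-0.65 to -0.25). The median log2 ratios were -0.05 for ligands, -0.08 for receptors, 0.55 for other modulators and -0.03 for targets. They compare with 0.66 for the 5 antagonists read and -0.17 for all genes read.

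Outside chondrocytes, the genes of the same lists that passed 2-fold are named here, chosen after their values were seen. Wnt5a, a ligand of non-canonical Wnt signalling, was the only ligand past 2-fold. It was lower in mutant fibroblasts (73.2 and 36.1 CPM, with a counting interval of the log2 ratio of -1.75 to -0.33), among 3 ligands read. In osteoblasts (-1.10, -2.30 to -0.09) it was also past 2-fold, and in tendon cells (-1.69, -4.87 to 0.20) it rested on 2 mutant UMIs. Among receptors, Fzd1 was higher in mutant fibroblasts (12.5 and 40.6 CPM, 1.63, 0.63 to 2.77) and tendon cells (31.8 and 135 CPM, 2.05, 1.25 to 2.96), each among 7 read, and Fzd8 in osteoblasts (12.9 and 35.7 CPM, 1.39, 0.16 to 2.90) among 6 read. Cthrc1 was higher in mutant tendon cells (100.4 and 251 CPM, 1.31, 0.77 to 1.86), and Igfbp4 was lower in mutant lining cells (322 and 160 CPM, with an interval of -1.75 to -0.30) and osteoblasts (120.2 and 35.8 CPM, -1.72, -2.51 to -1.02). Of targets, only Ccnd1, which encodes cyclin D1, was past 2-fold, in tendon cells at 30.8 and 280.4 CPM (3.14, 2.46 to 3.90). These were the only pathway genes past 2-fold in the 4 gated populations. Of all genes read, 26.8% passed 2-fold in the lining, 12.9% in fibroblasts, 23.1% in tendon cells and 15.8% in osteoblasts. The pathway genes were not tested against these shares.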

How the data were processed

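The 2 tables (1 per library) hold a row per cell. Per the labels and methods, the authors aligned reads to mm10 with STAR 2.7.3a in Partek Flow, collapsed UMIs, counted genes and removed ambient RNA with SoupX. Gene values were deposited as log2(CPM + 1) for each cell. The deposited total per cell is an estimated count, not whole after ambient removal, and the mitochondrial share is deposited as a percent. The number of expressed genes per cell, a score as deposited by the authors, entered no result. The methods name limits of 5% mitochondrial and 24000 total counts, but 694 control and 492 mutant cells exceed the first, so all cells were used and the limits tried as an alternative.

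Log values were converted back to CPM and multiplied by the total of the cell to give estimated UMIs, of which 74.9% (control) and 97.3% (mutant) of those above 0 lay within 0.1 of a whole number. UMIs were summed over the cells of a population and scaled to CPM, and ratios are log2((mutant CPM + 1)/(control CPM + 1)). Counting intervals are exact conditional binomial intervals (95%) on rounded sums and assume independent molecules. A cell meeting more than 1 gate (243 control and 109 mutant) was in none, as was every cell above 0 for Sox9 and Col2a1 that the authors had not marked. There were 2 cell barcodes common to both libraries, none of them in the 5 populations of both. Doublets were kept. Scrublet (scanpy 1.11.5, expected rate 0.05) called 74 control and 2 mutant cells, and whether it worked in the mutant is not known. Total UMIs were 23576417 and 7452649. On simulated data for chondrocytes (5390 genes read), 200 genes changed by known folds were all recovered in direction (100%), and 97% of intervals held the true ratio. The changed genes were drawn from those of at least 100 CPM, a level that Frzb and Sfrp4 did not reach. Counts were simulated as independent molecules, as the intervals assume. The simulation therefore does not test lower genes or UMIs gathered in few cells.

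The members, marker lists and pathway lists were chosen with earlier results of these data known. From each pathway list, genes past 2-fold in chondrocytes and the highest gene were named, and others (Wnt4, Dmp1, Wnt5a, Fzd1, Fzd8 and pathway genes past 2-fold outside chondrocytes) were named after their values were seen. Alternatives changed the weighting, scaling, pseudocount (0.1 and 10 CPM), filter, cells, gates, depth and doublets. Analyses used Python 3.11.15, numpy 2.4.6, scipy 1.17.1 and pandas 2.3.3.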

Additional observations from a re-analysis of the deposited data

Results flagged for a closer look

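For 3 members the 2 libraries differed by at least 2-fold in opposite directions in different populations, and these differences between populations were not tested. Sfrp4 had a log2 ratio of mutant to control of 1.98 in chondrocytes and 2.22 in tendon cells but of -1.16 in osteoblasts. The tendon value was 0.20 without the 3 highest cells of each library, and the osteoblast value was -0.47 after thinning. Sfrp2, which binds Wnt proteins, had a ratio of -2.90 in fibroblasts and 1.03 in tendon cells, the latter 0.50 with gates of 1 marker fewer. Dkk3 had a ratio of 1.90 in the synovial lining, from about 10 and 8 UMIs, and of -1.50 in tendon cells. With gates of 1 marker fewer the lining value turned to -0.66, so for each of the 3 members at least 1 side of the contrast did not stay past 2-fold.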

How the results depend on the processing

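In chondrocytes, the log2 ratio of Frzb ranged from 1.40 to 1.81 over 14 alternatives and stayed past 2-fold in each, although the filter at 100 CPM no longer read it. The filters on low values could not change this ratio, nor could leaving out globin-positive cells, of which marked chondrocytes had none. Median-of-ratios scaling could only raise it. The 2 members past 2-fold there became 1 within the mitochondrial and count limits, 1 without the 3 highest cells of the gene, 1 without cells meeting the osteoblast marker rule and 0 with a mean of at least 100 CPM. In the first 3 of these Sfrp4 was the gene that fell below the level required. In the lining the count of 2 became 6 with no filter on low values and 1 with at least 100 CPM, without globin-positive cells, with 1 marker more, with 1 marker fewer, after thinning and without the 3 highest cells. In fibroblasts the count of 1 became 2 with cells weighted equally, no filter, 1 marker fewer, thinning or without the 3 highest cells, and 0 with at least 100 CPM. In tendon the 4 became 2 with a pseudocount of 10 CPM, 1 marker fewer or thinning. In osteoblasts the 1 became 0 with a pseudocount of 10 CPM or at least 100 CPM, 4 with no filter, 3 without globin-positive cells and 2 with 1 marker fewer. After thinning the count was still 1, yet Sfrp4 was at -0.47, within 2-fold, and the gene past it was Dkk1 (-1.32). Gates with 1 marker more can hold more cells, since fewer cells then meet several gates. Dkk2 in tendon turned to 1.40 with 1 marker fewer and 0.42 after thinning, and Dkk3 in the lining to -0.66 with 1 marker fewer. The cause was not tested. Of 291 ratios under alternatives, 270 kept their sign. The filters on low values leave each ratio unchanged and a pseudocount cannot turn its sign, so part of this count was fixed in advance. The number of members with the same highest population stayed between 4 and 7 (6 in the report), and Frzb, Sfrp5 and Sfrp4 kept theirs in all 6 alternatives. No paired analysis was possible because each genotype had 1 library. Depth limits the lining and tendon most, where 0 UMIs in the mutant allow up to 25.6 and 16.9 CPM.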

Other observations

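Mural cells held Sfrp4 at 118 CPM in the mutant from a single cell of 39, and at 0 in 60 control cells. Outside all gates and in cells of more than 1 gate (1779 control and 590 mutant cells), Sfrp5 was at 32.7 and 5.33 CPM and Wif1 at 229 and 122 CPM, whereas Sfrp4 was at 47.4 and 182 CPM and Dkk2 at 13.4 and 48.7 CPM. In the control, marked chondrocytes held 36.7% of all Sfrp5 UMIs, against 94.3% in the mutant. Cells above 0 for both Sox9 and Col2a1 numbered 1013 in the control and 335 in the mutant, against 501 and 332 marked chondrocytes, so these shares also reflect how many such cells were marked.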
